A study of Mus musculus with 10 samples.

Results

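Klf2, Klf3, Foxo1, Foxp1, S1pr1 and Cd44 are 6 genes of the circuit that keeps naive T cells quiescent and circulating, together with the adhesion receptor that memory T cells carry at high levels. They were picked by symbol from a table of 34573 genes, and all 6 were among the 12193 genes that passed the filter on low counts. RNA sequencing was available for 5 populations of splenic naive T cells from mice aged 6 weeks, with 2 libraries each. OB11/OB11 mice, named after a homozygous allele whose change the labels do not describe, gave CD4hi cells, DP cells (positive for CD4 and CD8) and CD4lo cells. Wild-type mice gave WT CD8 and WT CD4 cells. All were sorted as T cells bearing the beta chain of the T cell receptor, with a naive gate that was negative for CD25 and CD44, so the protein of Cd44 was part of the gate while the values here are RNA. The series title concerns the autoregulatory loop of ThPOK, the factor that Zbtb7b encodes and that holds CD4 T cells in their lineage. Neither the number of animals behind a library nor a separate origin of the 2 libraries of a group is stated, so p-values measure the spread between libraries, which may be technical.

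In resting T cells the forkhead factor Foxo1 stays in the nucleus and drives genes of homing and survival, among them Klf2, Ccr7 and Il7r. Antigen receptor and cytokine signals act through PI3 kinase and Akt, which phosphorylate Foxo1 and move it out of the nucleus. Klf2, a Kruppel-like zinc finger factor, activates S1pr1, whose product senses sphingosine-1-phosphate and lets T cells leave lymphoid organs. Klf3 is a related factor that mostly represses. Foxp1 is a forkhead repressor that holds naive T cells in quiescence and competes with Foxo1 at shared sites, such as one at Il7r. Cd44 binds hyaluronan and is the usual surface mark that separates naive from antigen-experienced T cells.

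Library totals ran from 5055956 to 7417789 counts. Levels are given as CPM, counts scaled to a common library total with TMM factors, and differences as log2 fold changes with their standard error (SE). Adjusted p-values are Benjamini-Hochberg values over all 12193 genes from edgeR's quasi-likelihood F test, and a gene is called at an adjusted p below 0.05. Zbtb7b averaged 27.8 CPM in CD4hi, 8.12 in DP and 8.998 in CD4lo cells, against 2.84 in WT CD8 and 151 in WT CD4 cells, and Cd4 and Cd8a followed the sort labels. Markers of T cells summed to between 2948 and 3604 CPM in every library. The first CD4hi library and the second WT CD4 library stood apart, with counts for 23545 and 25272 genes against 15532 to 17345 in the other 8, so results that rest on them are also given without both. In bulk RNA, fewer cells that express a gene and less RNA of it per cell cannot be told apart.

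Against WT CD4 cells, 2 of the 6 genes were called in CD4hi cells, 1 in DP cells, 3 in CD4lo cells and 4 in WT CD8 cells. Over all genes tested, 16.8% were called in CD4hi (10.4% higher and 6.43% lower), 19.1% in DP (11.1% higher and 8.06% lower), 15.8% in CD4lo (8.82% higher and 7.02% lower) and 21.7% in WT CD8 cells (11.1% higher and 10.6% lower) against WT CD4. These 4 comparisons share the WT CD4 libraries. Patterns differed between the genes. The forkhead factors Foxo1 and Foxp1 had no call in any of the 10 pairs of groups. The Kruppel-like factors Klf2 and Klf3 were higher in WT CD8 and, for Klf3, in CD4lo cells than in WT CD4 cells. S1pr1 was lower in all 4 groups than in WT CD4, and Cd44 was far lower in WT CD8 cells than anywhere else.

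**Figure D1:**
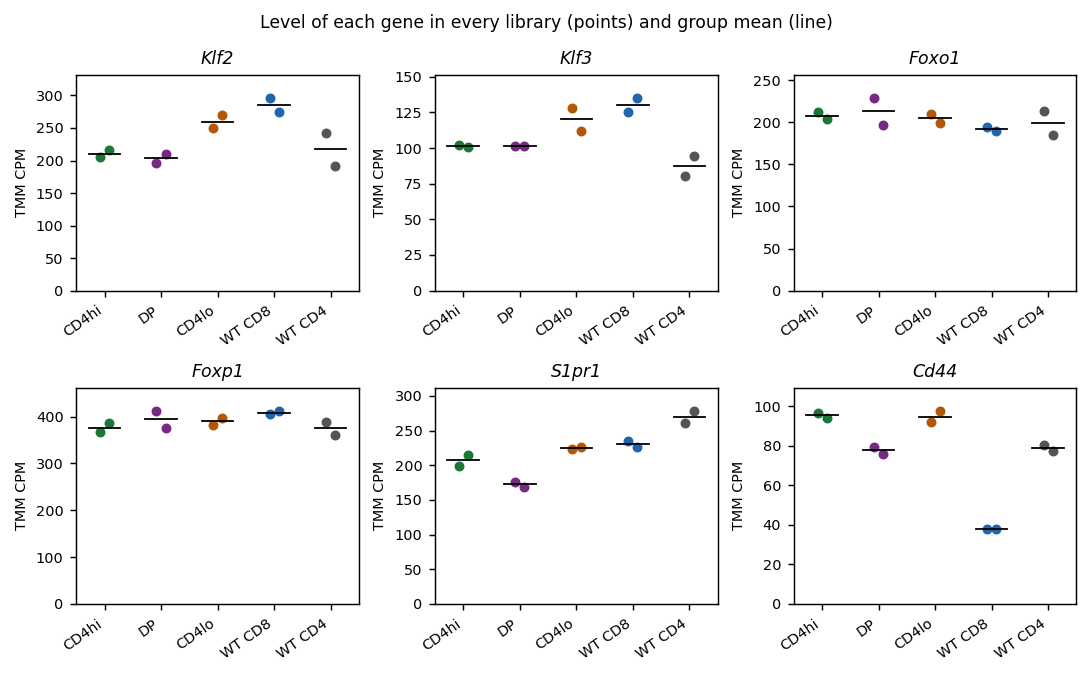
Level of the 6 genes in every library. The vertical axes show TMM-scaled CPM from 0, the horizontal axis the 5 groups, each point is 1 library and each line the mean of 2. Group means span 1.11-fold for Foxo1 and 1.09-fold for Foxp1. S1pr1 is lowest in DP at 169 and 176 CPM, and Cd44 is lowest in WT CD8 at 37.8 and 38.0 CPM.

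Klf2 had the most RNA per length of exon of the 6 genes, averaging 127 CPM per kb over the 10 libraries, against 72.5 for S1pr1, 28.3 for Foxp1, 23.5 for Foxo1, 11.4 for Cd44 and 9.62 for Klf3. Klf2 was measured at 205 and 215 CPM in CD4hi cells, 196 and 210.3 CPM in DP cells, 249.95 and 269 CPM in CD4lo cells, 297 and 275 CPM in WT CD8 cells, and 243 and 191 CPM in WT CD4 cells. WT CD8 and CD4lo libraries lay above all the others, while CD4hi and DP libraries fell between the 2 WT CD4 libraries. From the highest mean to the lowest the order was WT CD8, CD4lo, WT CD4, CD4hi and DP, a span of 1.41-fold in which no pair of neighbours passed the test.

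Klf2 was higher in WT CD8 than in WT CD4 cells by 0.40 ± 0.10 on the log2 scale (SE, n = 2 libraries each, edgeR adjusted p = 0.00973). That call was lost without the first WT CD8 library (0.36, adjusted p = 0.0971), without the second WT CD4 library (0.24, adjusted p = 0.0985) and without both libraries that stood apart (0.24, adjusted p = 0.0910). In CD4lo cells Klf2 was 0.26 ± 0.10 above WT CD4 with an adjusted p of 0.0938, and its 95% interval ran from 0.05 to 0.47. It passed the threshold without the first WT CD4 library (0.45, adjusted p = 0.00397) and with no filter on low counts (0.31, adjusted p = 0.0137). The spread of the WT CD4 pair therefore bears on each Klf2 comparison that uses it. Against WT CD4, Klf2 gave -0.04 in CD4hi cells, with a 95% interval from -0.26 to 0.17, and -0.09 in DP cells, with an interval from -0.31 to 0.12. Without the first WT CD4 library both values turned positive, to 0.15 in CD4hi and 0.10 in DP cells, and neither passed the test.

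The sharper contrasts of Klf2 were against WT CD8 cells. It fell in CD4hi cells by 0.44 on the log2 scale (SE 0.10, edgeR adjusted p = 0.00988) and in DP cells by 0.49 (SE 0.10, adjusted p = 0.00707), with no overlap of libraries in either, where 52.7% of all genes in CD4hi and 51.2% in DP cells did not overlap with WT CD8. In CD4lo cells the log2 fold change against WT CD8 was -0.14 with an interval from -0.35 to 0.07. The CD4hi call was lost without the first CD4hi library (-0.42, adjusted p = 0.0656) and without the first WT CD8 library (-0.39, adjusted p = 0.117). The DP call was lost without the first DP library (-0.46, adjusted p = 0.0911) and without the first WT CD8 library (-0.44, adjusted p = 0.0966). Klf2 was also higher in CD4lo than in DP cells (0.35, adjusted p = 0.0498), a call that leaving out any of the 4 libraries ended, at adjusted p from 0.102 to 0.339.

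Klf3 showed a steadier difference between the wild-type populations. It was measured at 102 and 101 CPM in CD4hi cells, 102 and 101 CPM in DP cells, 128 and 112 CPM in CD4lo cells, 125 and 135 CPM in WT CD8 cells, and 80.1 and 94.6 CPM in WT CD4 cells. Both WT CD4 libraries were the lowest of the 10, and the CD4hi and DP libraries lay between them and the WT CD8 pair. No neighbours in the order of means, WT CD8, CD4lo, DP, CD4hi and WT CD4, were called different. Klf3 was higher in WT CD8 than in WT CD4 cells by 0.57 ± 0.09 (SE, n = 2 each, edgeR adjusted p = 0.000444) and higher in CD4lo than in WT CD4 cells by 0.46 ± 0.09 (adjusted p = 0.00363). Both calls held under all 11 alternatives, with log2 fold changes from 0.48 to 0.71 for WT CD8 and from 0.36 to 0.59 for CD4lo.

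In CD4hi and DP cells Klf3 gave 0.21 each against WT CD4, with adjusted p of 0.156 in CD4hi and 0.136 in DP. Without the second WT CD4 library both passed, at 0.34 in CD4hi (adjusted p = 0.0388) and 0.34 in DP (adjusted p = 0.0346). Against WT CD8 Klf3 fell by 0.36 in CD4hi cells (adjusted p = 0.0231) and by 0.36 in DP cells (adjusted p = 0.0309). The CD4hi call was lost when any 1 of the 4 libraries was left out, at log2 fold changes from -0.43 to -0.31 and adjusted p from 0.0507 to 0.209. The DP call was lost in the same way, from -0.42 to -0.31 at adjusted p from 0.0756 to 0.279, and also with DESeq2 at an adjusted p of 0.0514. Klf3 did not overlap with WT CD4 in any of the 4 other groups, where the share of all genes without overlap was 54.5% in CD4hi, 58.4% in DP and 54.0% in CD4lo, and 59.7% in WT CD8 cells.

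Klf2 lies on chromosome 8 at 72319033 to 72321656, plus strand, and Klf3 on chromosome 5 at 64803388 to 64832901, plus strand (build mm10, GENCODE M21). Kruppel-like factors bind CACCC boxes, and the sequence upstream of both genes is shown because they are themselves of that family and ran in the same direction between WT CD8 and WT CD4. The sequences are RefSeq's for GRCm38.p6, 5′ to 3′ on the gene's strand, at chr5:64803271-64803387 for Klf3 and chr8:72318812-72319032 for Klf2, and they stop where the GENCODE gene begins. Capitals mark CACCC or its complement GGGTG.
Klf3 upstream: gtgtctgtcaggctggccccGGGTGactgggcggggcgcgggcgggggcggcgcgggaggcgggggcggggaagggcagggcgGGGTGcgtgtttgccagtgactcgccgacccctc
Klf2 upstream: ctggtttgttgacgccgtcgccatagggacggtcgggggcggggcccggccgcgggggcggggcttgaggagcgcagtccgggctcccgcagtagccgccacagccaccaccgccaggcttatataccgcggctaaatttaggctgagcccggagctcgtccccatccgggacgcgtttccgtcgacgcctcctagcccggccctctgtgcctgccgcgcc
In the full 250 bases before the RefSeq start, Klf3 had 5 matches to CACCC on either strand and Klf2 had 1. Of these, 2 for Klf3 and 0 for Klf2 lay in the printed stretch, before the GENCODE start. The 3 windows of Foxp1 had 3, 0 and 2 matches, and those of Foxo1 and Cd44 had 0. Of 32851 mouse promoters of 250 bases, 52% held at least 1 match and 0.667% held at least 5. The forkhead motif GTAAACA, searched on both strands, was found in no window of the 5 genes with an entry and in 3.17% of all promoters, so no match of one motif overlapped the other. A match of letters is a description and not a binding site.

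The other Kruppel-like factors were read from a list of 17 genes, of which 11 were tested. Against WT CD4 cells, 3 rose and 1 fell in CD4hi, 3 rose in DP, 4 rose in CD4lo and 4 rose in WT CD8 cells, Klf2 and Klf3 included. The list's median log2 fold change was 0.24 in CD4hi, 0.29 in DP and 0.34 in CD4lo, and 0.33 in WT CD8 cells, against medians over all genes of 0.00, -0.01, -0.02 and -0.03 in that order of groups. Without both libraries that stood apart, 2 rose and none fell in CD4hi, 3 rose in DP, 4 rose in CD4lo and 3 rose in WT CD8 cells.

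Klf6, an early response factor of many tissues, was measured at 121 and 128 CPM in CD4hi, 136 and 122 in DP, 169 and 158 in CD4lo, 136 and 130.1 in WT CD8, and 107 and 104 in WT CD4 cells. Both WT CD4 libraries were the lowest and both CD4lo libraries the highest. In CD4lo cells Klf6 rose by 0.63 ± 0.08 (SE, edgeR adjusted p = 6.10e-05) against WT CD4, a call kept under all alternatives. Klf11, a factor that transforming growth factor beta induces, had 7.52 and 9.66 CPM in CD4hi, 7.21 and 7.91 in DP, 8.98 and 7.24 in CD4lo, 10.5 and 9.004 in WT CD8, and 2.13 and 4.17 CPM in WT CD4 cells. Its rise in WT CD8 cells (1.57 ± 0.30, adjusted p = 0.00140) was kept under all alternatives. Klf11 also rose in CD4hi (1.40), DP (1.22) and CD4lo cells (1.33). The CD4hi call was lost without the second CD4hi library (1.18) and with only the 4 libraries compared (1.41, edgeR adjusted p = 0.0538). The CD4lo call was lost without the first CD4lo library (1.17). The DP call was lost without the second DP library (1.16, adjusted p = 0.0658) or the first WT CD4 library (0.87, adjusted p = 0.0698). Klf13, a factor that limits survival of thymocytes, had no call against WT CD4 and stayed between 313 and 355 CPM.

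**Figure D2:**
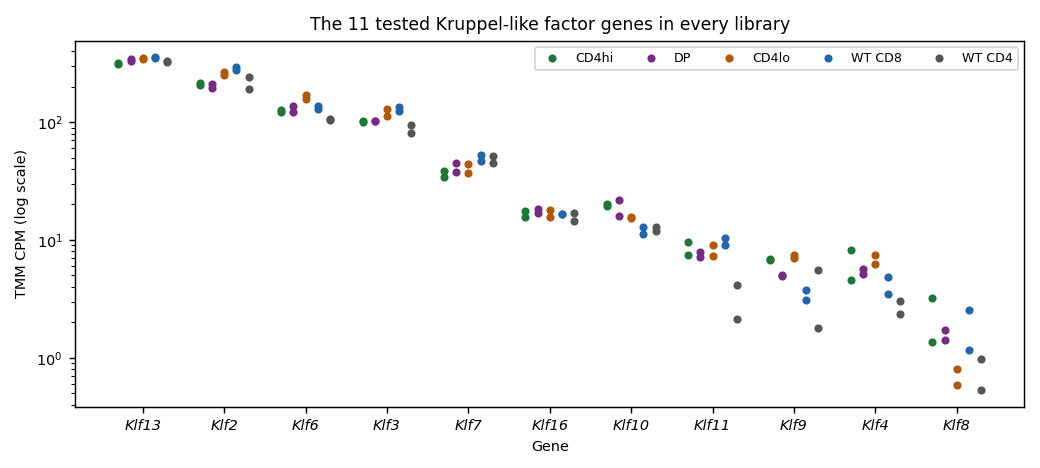
The 11 tested Kruppel-like factor genes in every library. The vertical axis shows TMM-scaled CPM on a log scale, genes run from the highest to the lowest mean, and each point is 1 library coloured by group. Klf6 is highest in CD4lo, at 169 and 158 CPM, and Klf11 is lowest in the 2 WT CD4 libraries.

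Foxo1 and Foxp1 RNA differed little between the 5 groups, and no pair of groups was called. Foxo1 was measured at 212 and 204 CPM in CD4hi cells, 229 and 197 CPM in DP cells, 210.4 and 199.7 CPM in CD4lo cells, 195 and 190.2 CPM in WT CD8 cells, and 214 and 185 CPM in WT CD4 cells. Every mutant group overlapped with WT CD4, and the means of the groups spanned 1.11-fold. The CD4hi, DP and CD4lo libraries lay above WT CD8 without overlap, at log2 fold changes of 0.11, 0.15 and 0.09, none of them called. In those pairs 52.7%, 51.2% and 46.2% of all genes did not overlap. None of the 10 comparisons was called by edgeR or DESeq2, and the 4 log2 fold changes against WT CD4 had 95% intervals that together ran from -0.24 to 0.29. Its sign against WT CD4 changed with the library left out in all 4 comparisons.

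Foxp1 was measured at 366 and 386 CPM in CD4hi cells, 412 and 376 CPM in DP cells, 383 and 397 CPM in CD4lo cells, 405 and 412 CPM in WT CD8 cells, and 388 and 361 CPM in WT CD4 cells. Its group means spanned 1.09-fold. The CD4hi and CD4lo libraries lay below WT CD8 without overlap, at log2 fold changes of -0.12 and -0.07, neither of them called. In those pairs 52.7% and 46.2% of all genes did not overlap. WT CD8 was the only group whose libraries both lay above WT CD4, by 0.12 ± 0.07 (SE, edgeR adjusted p = 0.243) with an interval from -0.03 to 0.28. No contrast of Foxp1 had an adjusted p under 0.05 with edgeR or DESeq2. Gm20696, a gene on the same strand that shares 300 exon bases with Foxp1, held 438 counts over all libraries, 1.79% of those of Foxp1. Gm20402, antisense to Foxo1, held 125 counts, 0.978% of those of Foxo1, and the strand setting of the counting is not stated.

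Of the 8 Foxo and Foxp family genes, 6 were tested. None was called in CD4hi cells against WT CD4 by edgeR, at an unadjusted p under 0.05 or under any alternative, DESeq2 included. In DP cells 1 fell, in CD4lo cells 2 fell and in WT CD8 cells 2 fell. Foxp3, the master factor of regulatory T cells, had 72.3 and 89.1 CPM in CD4hi, 31.7 and 33.3 in DP, 1.47 and 1.17 in CD4lo, 1.36 and 0.941 in WT CD8, and 75.2 and 82.5 CPM in WT CD4 cells, although the gate left out CD25. CD4hi and WT CD4 libraries held it at like levels and the CD4lo and WT CD8 libraries rested on 6 to 11 counts each. Its changes against WT CD4 were -1.28 ± 0.11 in DP cells, -5.85 ± 0.19 in CD4lo cells and -6.12 ± 0.20 in WT CD8 cells (SE), each kept under all alternatives. Foxp4 fell by 0.50 in CD4lo (edgeR adjusted p = 0.00427) and by 0.44 in WT CD8 cells (adjusted p = 0.00750). The Foxp4 calls were lost without the second CD4lo library, at -0.38 (adjusted p = 0.0723), and without the second WT CD8 library, at -0.38 (adjusted p = 0.103), and the WT CD8 call also with DESeq2. Foxo3 and Foxo4, which share targets with Foxo1, had means of 87.9 to 102 CPM and 13.8 to 16.8 CPM and no call against WT CD4.

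The signalling arm that acts on Foxo1 protein was read from 20 genes, all tested. Against WT CD4 cells, 2 rose and 5 fell in CD4hi, 1 rose and 2 fell in DP, 2 rose and 1 fell in CD4lo, and 3 rose and 1 fell in WT CD8 cells, with medians of 0.02, -0.01, 0.05 and 0.04 in that order. Without both libraries that stood apart, 2 rose and 2 fell in CD4hi, and 1 rose and 1 fell in DP cells. The same fit gave 2 rises and 1 fall each in CD4lo and WT CD8 cells. Pik3cd, the catalytic subunit p110 delta of lymphocyte PI3 kinase, rose by 0.45 ± 0.06 in WT CD8 (edgeR adjusted p = 7.26e-05) and by 0.28 ± 0.06 in CD4lo cells (adjusted p = 0.00603), both kept under all alternatives. Pik3ip1, an inhibitor of PI3 kinase, fell by 0.43 ± 0.08 in CD4hi cells (adjusted p = 0.00136). RNA does not report the phosphorylation that sets where Foxo1 sits.

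S1pr1 was highest in WT CD4 and lowest in DP cells. It was measured at 198 and 215 CPM in CD4hi cells, 176 and 169 CPM in DP cells, 223 and 226 CPM in CD4lo cells, 235 and 227 CPM in WT CD8 cells, and 261 and 278 CPM in WT CD4 cells. The order of means was WT CD4, WT CD8, CD4lo, CD4hi and DP, a span of 1.56-fold, and of neighbours in that order only WT CD8 and WT CD4 were called different. No libraries overlapped in any of the 10 pairs of groups. Of all genes the share without overlap was 41.8% for DP and 47.4% for CD4lo against CD4hi, 48.2% for CD4lo against DP, 46.2% for CD4lo against WT CD8, and 51.2% to 59.7% in the other 6 pairs. S1pr1 fell in DP cells against WT CD4 by 0.64 on the log2 scale (SE 0.07, n = 2 each, edgeR adjusted p = 2.18e-05), and the call was kept under all 11 alternatives, from -0.68 to -0.60. It fell in CD4hi cells by 0.38 (SE 0.07, adjusted p = 0.00226). Only leaving out both libraries that stood apart ended the CD4hi call, at -0.27 and an adjusted p of 0.104.

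The smaller falls of S1pr1 were less secure. In CD4lo cells it fell by 0.26 against WT CD4 (edgeR adjusted p = 0.0237). That call was lost without the first CD4lo library (-0.24, adjusted p = 0.164), the second CD4lo library (-0.25, adjusted p = 0.174) or the second WT CD4 library (-0.22, adjusted p = 0.136). In WT CD8 cells it fell by 0.22 (adjusted p = 0.0420), a call that every alternative ended, at adjusted p from 0.0511 to 0.374. Every alternative kept the direction in both. Against WT CD8, S1pr1 was lower in DP cells by 0.42 (adjusted p = 0.00257), lost without the second DP library (-0.42, adjusted p = 0.0603) and without the first WT CD8 library (-0.40, adjusted p = 0.0536). It was higher in CD4lo than in DP cells by 0.38 (adjusted p = 0.00515), lost without the first DP library (0.42, adjusted p = 0.0507) and without the second DP library (0.37, adjusted p = 0.102). S1pr1 lies on the minus strand of chromosome 3 at 115710433 to 115715072.

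**Figure D3:**
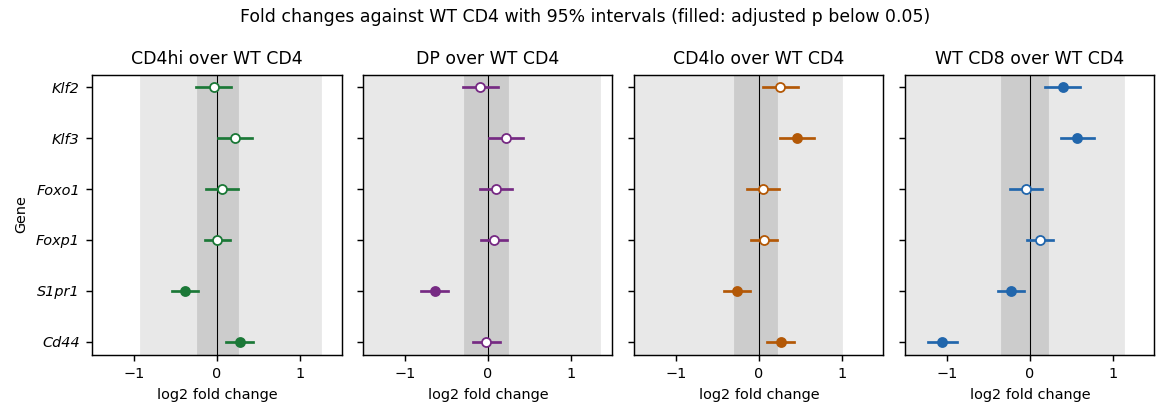
Log2 fold changes of the 6 genes against WT CD4 cells, with 1 panel for each other group. Circles are estimates, filled at an adjusted p below 0.05, and bars are 95% intervals. The dark and light bands hold the middle 50% and 90% of all 12193 genes tested. S1pr1 lies left of 0 in every panel, furthest in DP at -0.64, and Cd44 lies right of 0 in CD4hi and CD4lo but at -1.06 in WT CD8.

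S1pr1 runs with receptors and regulators of egress, for which 17 of 22 listed genes were tested. Against WT CD4 cells, 2 rose and 1 fell in CD4hi, 3 rose and 3 fell in DP, 2 rose and 2 fell in CD4lo, and 1 rose and 5 fell in WT CD8 cells, S1pr1 included. Their medians were 0.11 in CD4hi, -0.02 in DP and -0.02 in CD4lo, and -0.17 in WT CD8 cells. Without both libraries that stood apart the same counts were 3 and 0 in CD4hi, 1 and 2 in DP, 3 and 1 in CD4lo, and 1 and 3 in WT CD8 cells. Rgs1, which dampens chemokine receptor signals and keeps lymphocytes in tissue, had 131 and 131 CPM in CD4hi, 66.6 and 75.4 in DP, 87.4 and 82.0 in CD4lo, 45.2 and 44.6 in WT CD8, and 72.9 and 72.0 CPM in WT CD4 cells. It was highest in CD4hi and lowest in WT CD8, and rose by 0.86 ± 0.08 in CD4hi (edgeR adjusted p = 3.58e-06) and fell by 0.69 in WT CD8 cells (adjusted p = 3.90e-05), under all alternatives. Cd69, whose protein pulls S1pr1 off the surface after activation, had 119 and 119.6 CPM in CD4hi, 95.8 and 106 in DP, 103 and 95.4 in CD4lo, 101 and 111 in WT CD8, and 117 and 106 CPM in WT CD4 cells, with no call against WT CD4. S1pr4, the other S1P receptor of resting T cells, averaged 38.9 to 44.1 CPM and was also not called.

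The homing and survival genes downstream of Foxo1 and Klf2 did not move as 1 block. Of 20 listed targets, all tested, 5 rose and 5 fell in CD4hi, 2 rose and 4 fell in DP, 4 rose and 6 fell in CD4lo, and 3 rose and 5 fell in WT CD8 cells against WT CD4. Their medians were 0.06, 0.00, -0.01 and 0.01 in that order. Without both libraries that stood apart the counts were 3 and 4 in CD4hi, 0 and 4 in DP, 3 and 4 in CD4lo, and 2 and 4 in WT CD8 cells. The named targets below differed in both sign and size.

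Ccr7, the receptor for lymph node chemokines, had 112 and 99.4 CPM in CD4hi cells, 120.2 and 116 in DP cells, 121 and 135 in CD4lo cells, 122 and 128 in WT CD8 cells, and 176 and 159.6 CPM in WT CD4 cells. Both WT CD4 libraries lay above all 8 others. Ccr7 fell by 0.67 ± 0.09 in CD4hi (edgeR adjusted p = 0.000106) and by 0.51 ± 0.09 in DP cells (adjusted p = 0.000856), under all alternatives. It fell by 0.39 in CD4lo, lost without the first CD4lo library (-0.30, adjusted p = 0.109), and by 0.42 in WT CD8 cells, lost without the first WT CD8 library (-0.37, adjusted p = 0.0541).

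Il7r, the survival receptor for interleukin 7, had 305 and 322 CPM in CD4hi cells, 256 and 264 in DP cells, 461 and 426 in CD4lo cells, 369.97 and 371 in WT CD8 cells, and 417 and 404 CPM in WT CD4 cells. DP and CD4hi libraries were the lowest, as they were for S1pr1. Il7r fell by 0.39 ± 0.07 in CD4hi (edgeR adjusted p = 0.00118) and by 0.66 ± 0.07 in DP cells (adjusted p = 9.10e-06) against WT CD4, and in CD4lo cells it was higher than in DP cells by 0.77 ± 0.07 (adjusted p = 4.83e-06), all kept under all alternatives. It had no call against WT CD4 in CD4lo or WT CD8 cells. Itgb7, a chain of the gut-homing integrin, averaged 327 CPM in CD4hi, 292 in DP, 296 in CD4lo, 263 in WT CD8 and 253 in WT CD4 cells. Its rise in CD4hi cells (0.37, adjusted p = 0.0114) lost its call without the second CD4hi library (0.25) and without the second WT CD4 library (0.26). The call was also lost with only the 4 libraries compared (0.36, edgeR adjusted p = 0.0788).

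**Figure D4:**
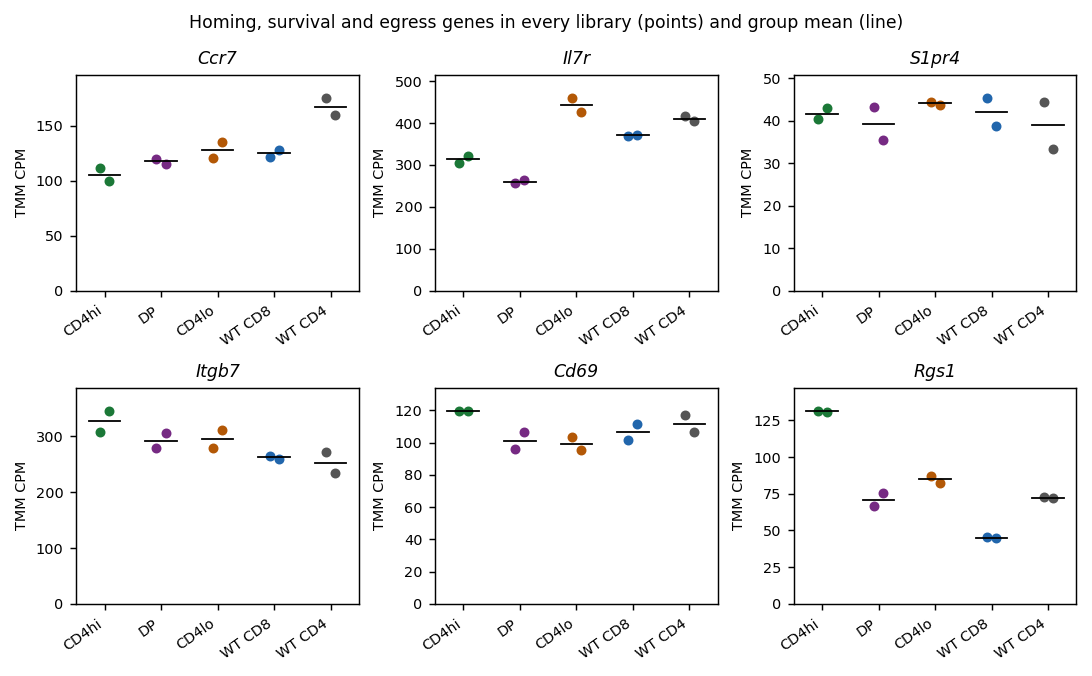
Ccr7, Il7r, S1pr4, Itgb7, Cd69 and Rgs1 in every library. The vertical axes show TMM-scaled CPM from 0, each point is 1 library and each line the mean of 2. Ccr7 is highest in WT CD4, Rgs1 is highest in CD4hi, and Il7r is lowest in DP, at 256 and 264 CPM.

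Cd44 gave the largest span of the 6 genes, 2.52-fold between its highest and lowest group means. It was measured at 96.8 and 94.0 CPM in CD4hi cells, 79.6 and 76.1 CPM in DP cells, 92.1 and 97.7 CPM in CD4lo cells, 37.8 and 38.0 CPM in WT CD8 cells, and 80.7 and 77.4 CPM in WT CD4 cells. WT CD8 stood alone below the other groups, and DP overlapped with WT CD4. In the order of means, CD4hi, CD4lo, WT CD4, DP and WT CD8, the neighbours CD4hi and CD4lo, and DP and WT CD4, were not called different. Cd44 was lower in WT CD8 than in WT CD4 cells by 1.06 on the log2 scale (SE 0.08, n = 2 each, edgeR adjusted p = 2.83e-07). Against WT CD8 it was higher by 1.33 ± 0.08 in CD4hi (adjusted p = 5.22e-08), by 1.04 ± 0.08 in DP (adjusted p = 1.59e-06) and by 1.32 ± 0.08 in CD4lo cells (adjusted p = 1.22e-07). These 4 calls were kept under all alternatives run.

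Against WT CD4 the rises of Cd44 were small, 0.27 ± 0.08 in CD4hi (edgeR adjusted p = 0.0235) and 0.26 ± 0.08 in CD4lo cells (adjusted p = 0.0293). DESeq2 did not call either, at adjusted p of 0.182 in CD4hi and 0.192 in CD4lo. The CD4hi call was also lost without the first CD4hi library (0.26, adjusted p = 0.130), the second CD4hi library (0.26, adjusted p = 0.146) or the second WT CD4 library (0.24, adjusted p = 0.119). The CD4lo call was lost without the first CD4lo library (0.32, adjusted p = 0.0505), the second CD4lo library (0.25, adjusted p = 0.154) or the second WT CD4 library (0.23, adjusted p = 0.148). The direction was kept throughout. In DP cells Cd44 gave -0.02 with an interval from -0.18 to 0.14. Cd44 lies on the minus strand of chromosome 2 at 102811141 to 102901665.

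Genes of memory and activation, a list of 24 that holds Cd44 and was tested whole, mostly rose in the mutant groups. Against WT CD4 cells, 19 rose and none fell in CD4hi, 16 rose and 1 fell in DP, 18 rose and 1 fell in CD4lo, and 9 rose and 5 fell in WT CD8 cells. The medians were 1.25 in CD4hi, 0.72 in DP and 1.33 in CD4lo, and 0.09 in WT CD8 cells, and leaving out both libraries that stood apart gave 16, 16, 16 and 9 rises. Eomes, a T-box factor of memory CD8 and killer cells, had 26.5 and 30.5 CPM in CD4hi, 34.3 and 36.9 in DP, 50.4 and 39.2 in CD4lo, 47.1 and 45.7 in WT CD8, and 4.98 and 5.002 CPM in WT CD4 cells. Ly6c2, a surface antigen of memory T cells, had 22.4 and 24.9 CPM in CD4hi, 20.4 and 16.7 in DP, 74.9 and 91.0 in CD4lo, 122 and 142 in WT CD8, and 1.60 and 1.53 CPM in WT CD4 cells. Eomes and Ly6c2 were thus high in WT CD8, the group in which Cd44 was lowest, but they do not stand for the whole list. Il2ra, another member, gave -4.42 in WT CD8 against WT CD4 cells. Compared with WT CD8, CD4lo cells had 16 of the 24 genes higher and 1 lower, Cd44 included. For DP cells the numbers were 10 higher and 1 lower. CD4hi cells had 12 higher and 4 lower.

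The partners of Cd44, ligands, cytoskeletal linkers and splicing factors, were 16 genes of which 13 were tested. Against WT CD4 cells 3 rose in CD4hi, 5 rose in DP, 1 rose in CD4lo, and 2 rose and 2 fell in WT CD8 cells, with medians of 0.02, 0.06, 0.03 and -0.04 in that order of groups. Without both libraries that stood apart, 2 rose in CD4hi, 3 rose and 1 fell in DP, 2 rose in CD4lo, and 1 rose and 1 fell in WT CD8 cells. Selplg, the selectin ligand that CD4lo cells held at 404 and 441 CPM against 304 and 266 CPM in WT CD4 cells, rose there by 0.57 ± 0.08 (edgeR adjusted p = 0.000148). Cd74, a chain of the class II pathway that also signals with CD44, had 106 and 123 CPM in DP and 112 and 127 in WT CD8 cells, against 21.0 and 30.3 CPM in WT CD4 cells, and it is also a marker of B cells.

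Genes of the naive state, 24 listed and tested with Klf2, Klf3 and Foxp1 among them, were split. Against WT CD4, 5 rose and 10 fell in CD4hi, 2 rose and 7 fell in DP, 7 rose and 7 fell in CD4lo, and 8 rose and 8 fell in WT CD8 cells, with medians of -0.10, -0.09, 0.07 and 0.03 in that order. Without both libraries that stood apart the counts were 2 and 6 in CD4hi, 2 and 7 in DP, 4 and 7 in CD4lo, and 5 and 6 in WT CD8 cells. Immediate early and dissociation genes, a sign of handling, had 18 of 20 tested. Among them 10 rose and 2 fell in CD4hi, 8 rose and 2 fell in DP, 7 rose and 5 fell in CD4lo, and 6 rose and 5 fell in WT CD8 cells. The part of these genes in the results was not tested.

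Markers of other cell types differed between groups. Summed B cell markers (11 of 12 in the table, none at 0 in any group) were 314 and 301 CPM in CD4hi, 445 and 499 in DP, 236 and 274 in CD4lo, 558 and 579 in WT CD8, and 277 and 319.7 CPM in WT CD4 cells. Of the 11, 8 rose in DP and 10 in WT CD8 cells against WT CD4. Summed macrophage markers (14 of 14 in the table) were 238 and 233 CPM in CD4hi, 350.4 and 372 in DP, 196 and 211 in CD4lo, 199 and 214 in WT CD8, and 161 and 174 CPM in WT CD4 cells, and 9 of 12 tested rose in DP cells. A single gene made up much of each sum. The average log2 CPM was 7.92 for Ighm, with Cd74 next of the B cell list at 6.03. It was 7.37 for Ctss, followed by Lyz2 at 5.15 and Cybb at 3.37. The sums therefore do not measure how many such cells were present.

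Summed gamma delta T cell markers (7 of 8 in the table) were 6.09 and 4.57 CPM in CD4hi, 4.86 and 4.94 in DP, 143 and 146 in CD4lo, 7.57 and 6.45 in WT CD8, and 1.60 and 6.11 CPM in WT CD4 cells, and all 7 tested rose in CD4lo cells. Summed NK cell markers were 79.8 and 87.8 CPM in CD4hi, 131 and 144 in DP, 203 and 200.3 in CD4lo, 203 and 202 in WT CD8, and 30.2 and 29.9 CPM in WT CD4 cells. Ncr1, which defines NK cells, had 11.7 and 13.7 CPM in CD4lo cells and under 1 CPM in every other library. CD4lo cells, in which Klf3, Klf6 and Cd44 were above WT CD4, thus also carried the gamma delta markers and Ncr1. Their NK sum was no higher than that of WT CD8 cells, the group with the lowest Cd44. The make-up of that sum differed, since 4 of the 10 NK markers were at 0 in WT CD8 and 0 of them in CD4lo cells. Of the 7 tested, 3 were higher and 1 was lower in CD4lo than in WT CD8 cells, with a median log2 fold change of 0.92. Equal NK sums therefore do not show equal numbers of NK cells. DP cells, with the lowest S1pr1, had the highest macrophage sum. The part of these markers in the results was not tested.

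**Figure D5:**
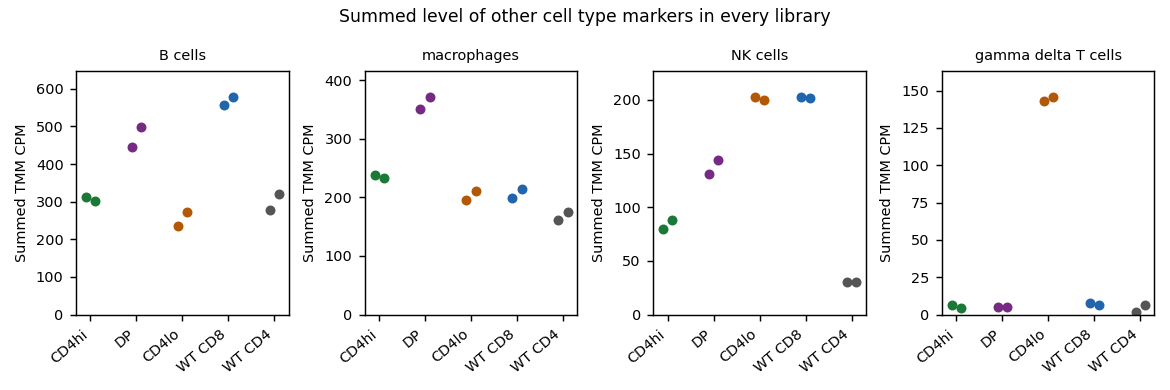
Summed level of the markers of B cells, macrophages, NK cells and gamma delta T cells in every library. The vertical axes show the sum of TMM-scaled CPM from 0 and each point is 1 library. B cell markers are highest in WT CD8 and DP, macrophage markers in DP, and gamma delta T cell markers reach 143 and 146 CPM in CD4lo while all other libraries stay under 8 CPM.

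Within the mutant mice, calls among the 6 genes were made in 1 of the 3 pairs of groups. None was called in DP against CD4hi, where 1.62% of all genes were called, or in CD4lo against CD4hi, where 7.03% were. At an unadjusted p under 0.05 edgeR gave 2 in each pair, S1pr1 and Cd44 for DP and Klf2 and Klf3 for CD4lo, and DESeq2 called 0 in both. With only the 4 libraries compared, edgeR called Cd44 in DP (-0.29, adjusted p = 0.0481) and Klf2 in CD4lo (0.30, adjusted p = 0.0488), and with no filter on low counts Klf2 in CD4lo (0.34, adjusted p = 0.00992). In CD4lo against DP, 3 were called, all higher (Klf2, S1pr1 and Cd44), where 6.19% of genes were called and 2.55% were higher. The Cd44 value there, 0.28 (edgeR adjusted p = 0.0381), lost its call under 8 of 10 alternatives, among them leaving out any of the 4 libraries, at 0.26 to 0.34. Against WT CD8, 3 of the 6 were called in CD4hi, 4 in DP and 1 in CD4lo cells, where 9.92%, 6.85% and 5.49% of all genes were called in that order.

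Over the 10 libraries, Klf2 and Klf3 had a Pearson correlation of 0.61 in log2 CPM, Klf2 and S1pr1 of 0.31, Klf2 and Cd44 of -0.58, and Foxo1 and S1pr1 of -0.47. These libraries share only 5 groups, so the values describe the groups more than independent samples. Among 5927 well-measured genes, those most like each member were Slc11a2 for Klf2 (r = 0.95), Efr3a for Klf3 (r = 0.97), Tspan13 for Foxo1 (r = 0.88), Fip1l1 for Foxp1 (r = 0.95), Fam101b for S1pr1 (r = 0.95) and Vim for Cd44 (r = 0.96). The next for Klf2 were Hspa9 and Cog4, for Klf3 Acpp and Ripk1, for Foxo1 Helb and Gaa, for Foxp1 Ndufb7 and Pcnt, for S1pr1 Zfhx2 and Fem1c, and for Cd44 Maf and Capg, with r from 0.83 to 0.96. Maf had a Spearman rho of only 0.53 with Cd44.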

How the data were processed

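The authors deposited 1 table of raw read counts per gene symbol. The submitters' processing notes name TopHat2, HTSeq and build mm10. Versions, annotation and strand setting are not given in the sources used here. Per the labels' protocols, 10 ng of RNA went into a directional library with ribosomal cDNA depleted. All 10 columns were matched to samples by their names, and groups came from the titles. The table's 34573 genes were filtered with filterByExpr, which left 12193 genes with 99.7% of the counts, and scaled by TMM. All 10 libraries were fitted in 1 edgeR 4.0.16 quasi-likelihood model by group (R 4.3.3, 5 residual degrees of freedom). The 10 pairs of groups were tested two-sided with Benjamini-Hochberg adjustment at 0.05. With 2 libraries against 2, the smallest p of an exact permutation test is 0.333, and none was run. A run on simulated data checked the code only, since its changes were larger than most reported here and all its genes had the same spread.

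Fold changes are those of the first group over the second. Alternatives were DESeq2 1.42.0 size factors, the DESeq2 test, no filter, a replicate block, only the 4 libraries compared, a fit without the symbol with the most counts and mitochondrial genes, and leaving out each library. A fit without both libraries that stood apart was added after seeing the data. The genes and lists were chosen with earlier results of these data known. Named list members were those called with the largest changes at an average log2 CPM from 3 upwards, and the genes most like each of the 6 were sought from 4 upwards. Counts carry no molecular identifiers. The chi-square between the 2 libraries of each group averaged 3.48 to 15.1 per gene over genes with at least 20 counts, so no pair agreed within counting error. CPM per kb uses the union of GENCODE M21 exons. Results for 2 listed genes are not reported here.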

Additional observations from a re-analysis of the deposited data

How the results depend on the processing

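Of 642 refitted fold changes of the 6 genes over all alternatives, 529 kept direction and call, 65 lost a call, 8 gained one and 40 changed sign, and none of the 40 was called as first fitted. The fall of S1pr1 in DP, the rise of Klf3 in CD4lo and the Cd44 and Klf3 differences between WT CD8 and WT CD4 held under all 11 alternatives each. Of 792 refitted counts of called list genes against WT CD4, 637 stayed within 1.5 times the reported count. Of 337 called fold changes of the other named genes, 188 kept their call under every alternative. The cause of each change below was not tested. A value that missed the threshold does not show equal levels. Scaling by size factors or without the most abundant symbols shifted the median of all genes by less than 0.03 in every comparison.

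The DESeq2 test called 1287 genes in CD4hi, 1458 in DP and 1270 in CD4lo, and 1758 in WT CD8 against WT CD4 (edgeR 2048, 2332, 1931 and 2651), 131 in DP against CD4hi (edgeR 198) and 502 in DP against WT CD8 (edgeR 835). Under it S1pr1 in WT CD8 against WT CD4 (-0.22) and Cd44 in CD4hi (0.27) and CD4lo (0.27) lost their calls. With only the 4 libraries compared, 1202 genes were called in CD4hi against WT CD4 and 1351 in DP against WT CD8, and against WT CD4 the calls of S1pr1 in WT CD8 (-0.21) and CD4lo (-0.26) and of Cd44 in CD4hi (0.27) and CD4lo (0.27) were lost, while Foxp1 in CD4hi turned to -0.0021. Against CD4hi, Cd44 in DP (-0.29) and Klf2 in CD4lo (0.30) gained calls.

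With no filter on low counts 345 genes were called in DP against CD4hi. Against WT CD4, S1pr1 in WT CD8 (-0.17) and CD4lo (-0.21) and Cd44 in CD4hi (0.29) lost their calls, Klf2 in CD4lo gained one (0.31), and Foxo1 in WT CD8 (0.0038) and Cd44 in DP (0.024) changed sign. In CD4lo against CD4hi, Klf2 gained a call (0.34), and Foxo1 (0.022) and Cd44 (0.032) changed sign. S1pr1 in WT CD8 also lost its call with DESeq2 size factors (-0.22) and without the most abundant symbols (-0.20). Leaving out those symbols turned Foxp1 in CD4hi against WT CD4 to -0.0054 and, in CD4lo against CD4hi, Foxo1 to 0.0037 and Cd44 to 0.014.

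Without both the first CD4hi and the second WT CD4 library, S1pr1 in WT CD8 (-0.17), CD4hi (-0.27) and CD4lo (-0.21), Klf2 in WT CD8 (0.24), and Cd44 in CD4hi (0.23) and CD4lo (0.24) lost their calls against WT CD4, and Klf3 in DP gained one (0.34). Foxo1 in CD4hi (-0.062), DP (-0.0069) and CD4lo (-0.054) and Foxp1 in CD4hi (-0.0021) changed sign, as did Klf3 in DP (-0.00071) and Foxo1 (0.0083) and Cd44 (0.0076) in CD4lo against CD4hi.

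Leaving out 1 library at a time leaves an arm with 1 library, which is assumed to vary like the other groups. The genes called ranged from 1193 to 1852 in CD4hi, 1254 to 2002 in DP, 1239 to 1813 in CD4lo and 1411 to 2317 in WT CD8 against WT CD4, from 600 to 863, 312 to 399 and 353 to 447 in CD4hi, DP and CD4lo against WT CD8, and from 69 to 122 in DP and 507 to 573 in CD4lo against CD4hi and 371 to 476 in CD4lo against DP. Against WT CD4, Klf2 ranged from -0.21 to 0.15 in CD4hi, -0.26 to 0.10 in DP, 0.098 to 0.45 in CD4lo and 0.24 to 0.59 in WT CD8. Klf3 ranged from 0.11 to 0.34 in CD4hi and 0.12 to 0.34 in DP. Foxo1 ranged from -0.040 to 0.18 in CD4hi, -0.0083 to 0.22 in DP, -0.057 to 0.17 in CD4lo and -0.15 to 0.076 in WT CD8, and Foxp1 from -0.068 to 0.068 in CD4hi. S1pr1 ranged from -0.30 to -0.22 in CD4lo and -0.25 to -0.17 in WT CD8, and Cd44 from 0.24 to 0.31 in CD4hi, -0.052 to 0.023 in DP and 0.23 to 0.32 in CD4lo. Against CD4hi, Klf2 (-0.089 to 0.026) and Foxo1 (-0.059 to 0.16) in DP and Foxo1 (-0.046 to 0.055) and Cd44 (-0.013 to 0.047) in CD4lo spanned 0, as did Foxo1 (-0.14 to 0.073) and Foxp1 (-0.062 to 0.064) in CD4lo against DP.

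The labels number the libraries of each group 1 and 2. Same-numbered libraries had correlations of their deviations from -0.548 to 0.126 over the 10 pairs of groups, above 0.1 in 2. The lowest was between CD4hi and WT CD4, where the first CD4hi library deviated like the second WT CD4 library, the 2 that stood apart. These values cannot tell whether libraries of the same number share an animal or a run, which the labels do not state. With the replicate block, 2417 genes were called in WT CD8 against WT CD4, and S1pr1 there lost its call (-0.22, edgeR adjusted p = 0.0577), as did Klf2 (0.35) and Cd44 (0.28) in CD4lo against DP and Klf3 (-0.36) in DP against WT CD8.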
